A study of Danio rerio with 6 samples.

Results

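The 6 genes described here are 2 proneural genes, atoh1a and neurog1, the Notch ligand genes dla and dld, the receptor gene notch1a and the repressor gene her6. They were chosen by name, as proneural genes and genes of lateral inhibition, with earlier results of these data known and with no threshold on their values, and they are 6 of the 32266 Ensembl genes counted in 6 samples of zebrafish cells. All 6 were matched by their Ensembl identifiers.

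Each sample held DsRed-positive cells that a flow sorter had collected from dissociated embryos of the AB line that were heterozygous for the pax8:DsRed transgene, at late OEPD stages during early somitogenesis. The OEPD is the otic-epibranchial progenitor domain, from which the inner ear and the epibranchial neurons arise, and the transgene also marks the nephric anlagen, the future kidney, so every sample was a mixture of at least these tissues. The 3 control samples (controls 1, 2 and 3) came from wild-type embryos of this transgenic background, and the 3 atoh1b-MO samples (atoh1b-MO 2, 4 and 5, numbered as in their titles) from such embryos injected at the one-cell stage with a morpholino, an antisense oligomer, against atoh1b, a proneural gene needed for the earliest hair cells. The comparison asks which genes of the sorted cells depend on atoh1b. For the injected samples the genotype field reads dlx3b/4b knockdown, which contradicts their titles and the study, and the titles were followed. The labels name no control morpholino, no clutch and no number of embryos or cells per sample. Because they also do not say that the samples of a group came from separate clutches, although the study calls them biological replicates, the p-values measure only the spread between these samples. The study fitted a factor for clutch, which could not be fitted here without clutch labels, and a term for the samples numbered 2 was tried in its place and is given where it changed a call of the 6 genes.

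Atoh1 and Neurog1 are basic helix-loop-helix (bHLH) transcription factors that commit cells of the ear primordium to the sensory hair cell and the neuronal fate, respectively. A committing cell raises Delta ligands on its surface, which activate Notch receptors on its neighbours, and the cleaved receptor then switches on genes of the Her/Hes repressor family that hold the neighbours back, a process called lateral inhibition. In zebrafish the same ligands, receptors and repressors also act widely in the neural plate and the somites, so their transcripts are not specific for the ear.

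The samples held between 24120228 and 37169850 counts each, and 20353 to 22678 genes had a count. Levels are given as CPM, counts per 1000000 of the sample total after TMM scaling, and 3 counts, taken as the floor of detection, corresponded to 0.0802 to 0.122 CPM. This floor covers counting error only, whereas the intervals of the fold changes below include the spread between samples. The targeted gene, atoh1b, lies on an unplaced scaffold and had 0 counts in every sample, like all 565 genes on such scaffolds, so the knockdown could not be checked from its transcript. Control 3 stood apart from the other samples. Its pax8 level was 16.5 CPM against 295 and 226 CPM in controls 1 and 2 and 109, 201 and 173 CPM in atoh1b-MO 2, 4 and 5. The study dismissed 1 wild-type sample that diverged from the others, and its text does not name that sample. Because control 3 is the control that diverges in these counts, the comparison was made with 5 samples (without control 3) and again with all 6, with edgeR's quasi-likelihood test and Benjamini-Hochberg adjustment over all genes tested, and a gene was called at an adjusted p below 0.1.

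None of the 6 genes was called as changed in either comparison. With 5 samples, 110 of 18397 genes tested were called, which is 0.598% of them, and with 6 samples 0 of 17874, or 0%. Of the 110 genes, 83 were higher in atoh1b-MO (0.451% of those tested) and 27 lower (0.147%). In the 5-sample comparison 2054 genes, or 11.2%, had an unadjusted p below 0.05, and in the 6-sample comparison 1040, or 5.82%. On the same 6 samples DESeq2 called 112 genes and limma voom 21. Among the 6 genes described here, atoh1a had too few counts for the test, and of the 5 tested only dld had an unadjusted p below 0.05, in both comparisons. The levels of atoh1a, neurog1, dla and dld nevertheless differed widely between samples, whereas notch1a and her6 varied less. Control 3 had the highest level of all samples for 4 genes, atoh1a, neurog1, dla and dld, or 3 of the 5 tested, whereas it was the highest sample for 27.8% of all genes tested with 6 samples and the highest control for 40.9%. None of the 6 genes was higher in every atoh1b-MO sample than in every control, which 7.36% of all genes were with all 3 controls. For these 4 genes atoh1b-MO 2 was also the highest of the atoh1b-MO samples, which held for 36.9% of all genes tested.

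**Figure D1:**
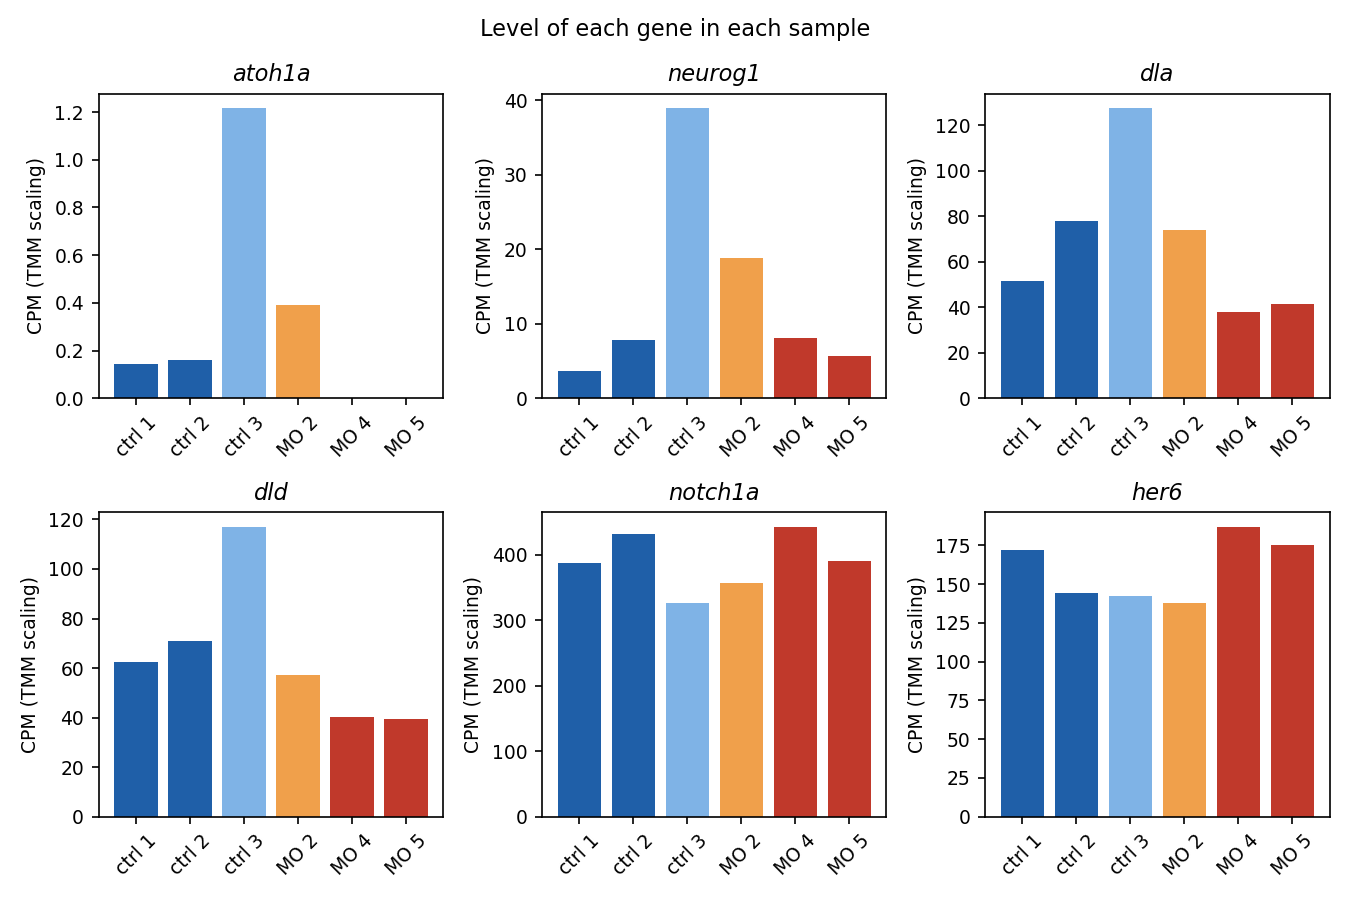
Bars give the level of each gene, in CPM with TMM scaling on a linear axis from 0, in each of the 3 controls (ctrl) and 3 atoh1b-MO (MO) samples, with control 3 and atoh1b-MO 2 in lighter colours. atoh1a, neurog1, dla and dld peaked in control 3, at 1.22, 39.0, 127 and 117 CPM, whereas notch1a and her6 varied less.

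The proneural gene atoh1a, a paralog of the targeted gene (ENSDARG00000055294, chromosome 8, 29584754 to 29586383 on the plus strand, GRCz10, 1 exon block of 1630 bases), was close to the floor. It had 4, 6 and 34 counts in controls 1, 2 and 3, or 0.144, 0.160 and 1.22 CPM. In atoh1b-MO 2 it had 10 counts, or 0.390 CPM, and in atoh1b-MO 4 and 5 it had 0 counts, which allows up to 0.122 and 0.0996 CPM. Controls 1 and 2 lay just above these limits, and atoh1b-MO 2 lay above both of them, so the groups overlapped. In fits without a filter on low counts the log2 fold change of atoh1b-MO over control was -0.23 ± 1.89 (SE) with 5 samples (adjusted p = 0.981) and -1.94 ± 1.56 with 6 (adjusted p = 0.844, edgeR). No difference was detectable from so few counts, and why the counts were low was not tested. The study, citing earlier work, places the start of atoh1a expression in the ear primordium at a later stage, which these samples do not cover. The annotation places another gene (ENSDARG00000092755) on the same strand over 887 bases, or 54.4%, of the exon of atoh1a. That gene had 0 counts in every sample, and how reads in the shared stretch were assigned is not stated. The counts of atoh1a, and its level per kilobase, may therefore rest on only part of its exon.

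The neuronal determination gene neurog1 (ENSDARG00000056130, chromosome 14, 26405226 to 26406724 on the minus strand, 2 exon blocks, 1393 bases) varied most among the 5 genes with enough counts. Its levels were 3.71, 7.89 and 39.0 CPM in controls 1, 2 and 3. The atoh1b-MO samples 2, 4 and 5 had 18.8, 8.05 and 5.64 CPM. Control 3 was 6.72-fold above the mean of controls 1 and 2, atoh1b-MO 2 was 2.74-fold above the mean of the other atoh1b-MO samples, and the remaining 4 samples lay together, with the groups interleaved. The average was 5.80 ± 2.96 CPM (SD, n = 2) over controls 1 and 2 and 10.8 ± 6.99 CPM (SD, n = 3) over the atoh1b-MO samples. For neurog1 the log2 fold change was 0.89 ± 0.53 (SE) with 5 samples, with a 95% interval of -0.34 to 2.13 and an adjusted p of 0.586 (edgeR). With all 6 samples it turned to -0.64 ± 0.88, with an interval of -2.75 to 1.47 and an adjusted p of 0.909. Without atoh1b-MO 2 the 5-sample value was 0.23, without control 1 it was 0.46 and without control 2 it was 1.54, so the sign of the difference depended on control 3 and its size on each of these samples. A term for the samples numbered 2, the only number the groups share, gave 1.06 with 5 samples and an adjusted p of 0.0584, which passes the threshold.

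The Delta ligand gene dla (ENSDARG00000010791, chromosome 1, 53353714 to 53366437 on the plus strand, 11 exon blocks, 3986 bases), whose product presents the Notch signal to adjacent cells, had levels of 51.7, 77.9 and 127 CPM in controls 1, 2 and 3. The corresponding levels of atoh1b-MO 2, 4 and 5 were 73.9, 37.7 and 41.5 CPM. The lowest values belonged to atoh1b-MO 4 and 5, but atoh1b-MO 2 lay between controls 1 and 2. Controls 1 and 2 had a mean of 64.8 ± 18.6 CPM (SD, n = 2), and the atoh1b-MO samples one of 51.0 ± 19.9 CPM (SD, n = 3). The log2 fold change was -0.34 ± 0.29 (SE, 95% interval -1.03 to 0.34, adjusted p = 0.715) with 5 samples and -0.75 ± 0.39 (-1.67 to 0.18, adjusted p = 0.848) with 6, by edgeR. It was -0.71 without atoh1b-MO 2 (adjusted p = 0.162) and -0.02 without control 2, in the 5-sample comparison. A gene on the opposite strand, si:ch211-133l11.11, shares 339 bases, or 8.50%, of the exons of dla and had 0 counts in every sample.

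The second Delta ligand gene, dld (ENSDARG00000020219, chromosome 13, 5947112 to 5953343 on the minus strand, 11 exon blocks, 3339 bases), was the only one of the 6 genes whose groups did not overlap. It was measured at 62.5, 70.8 and 117 CPM in controls 1, 2 and 3. The levels in atoh1b-MO 2, 4 and 5 were 57.1, 40.2 and 39.5 CPM. Every atoh1b-MO sample was thus below every control, a pattern shown by 14.7% of all genes when controls 1 and 2 were used and by 5.82% when all 3 controls were used. The mean over controls 1 and 2 was 66.7 ± 5.84 CPM (SD, n = 2), and that over the atoh1b-MO samples was 45.6 ± 9.98 CPM (SD, n = 3). This corresponded to a log2 fold change of -0.55 ± 0.17 (SE, 95% interval -0.94 to -0.15) with 5 samples and -0.87 ± 0.27 (-1.52 to -0.22) with 6. The unadjusted p was 0.0129 and 0.0158, but after adjustment over all genes tested it was 0.292 and 0.791 (edgeR). The call depended on the fit. With 5 samples dld passed the threshold at an adjusted p of 0.0768 with no filter on low counts, 0.0914 in DESeq2, 0.0482 with a term for the samples numbered 2 and 0.0278 without atoh1b-MO 2, where the log2 fold change was -0.74. The 4 settings that called it stood against 9 alternatives that did not, and the adjusted p ranged from 0.0278 to 0.694 over all settings tried. With 6 samples only DESeq2 on filtered genes called it (adjusted p = 0.0320).

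The receptor gene notch1a (ENSDARG00000103554, chromosome 21, 4601675 to 4684498 on the minus strand, 39 exon blocks, 9320 bases) encodes a transmembrane receptor for these ligands. It was present at 388, 431 and 327 CPM in controls 1, 2 and 3. Its levels in atoh1b-MO 2, 4 and 5 were 357, 443 and 390 CPM. The groups overlapped, control 3 was here the lowest sample and atoh1b-MO 4 the highest. The log2 fold change was -0.04 ± 0.11 (SE) with 5 samples, and its 95% interval of -0.29 to 0.20 bounds the difference to either side (adjusted p = 0.917, edgeR). With 6 samples the value was 0.05 ± 0.13, with an interval of -0.25 to 0.36 (adjusted p = 0.951).

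The repressor gene her6 (ENSDARG00000006514, chromosome 6, 36573189 to 36574950 on the minus strand, 3 exon blocks, 1538 bases), a relative of mammalian Hes1, was measured at 172, 144 and 142 CPM in controls 1, 2 and 3. In atoh1b-MO 2, 4 and 5 it reached 138, 187 and 175 CPM. The groups overlapped completely, since the lowest and the highest level both came from injected embryos. The log2 fold change was 0.08 ± 0.14 (SE, 95% interval -0.25 to 0.41, adjusted p = 0.878) with 5 samples and 0.12 ± 0.14 (-0.21 to 0.46, adjusted p = 0.898) with 6, by edgeR. A gene of the Her family that is high in the sorted cells thus gave an interval that allows a small change in either direction.

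**Figure D2:**
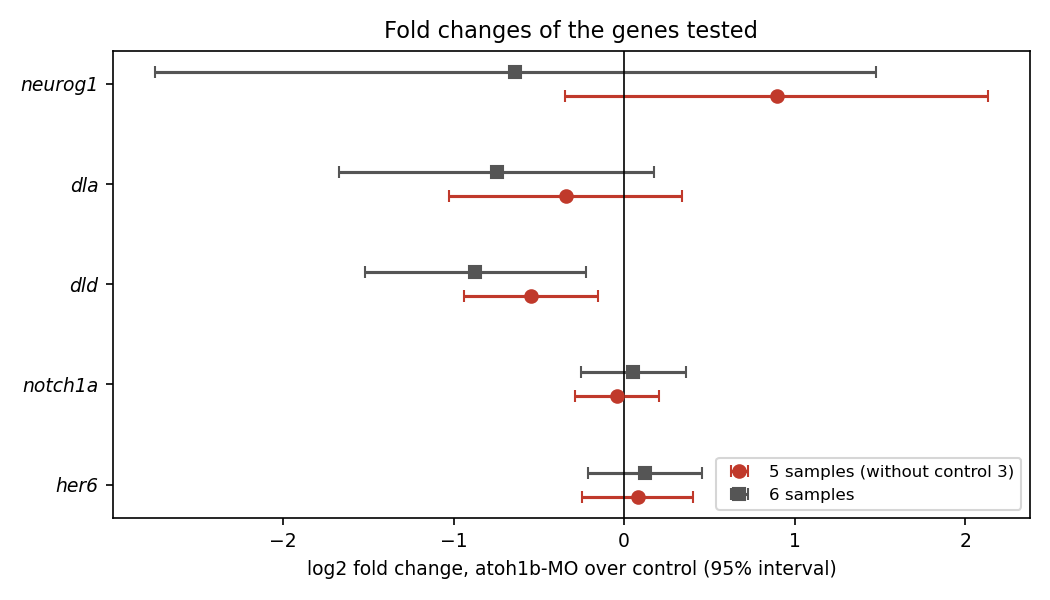
Points give the log2 fold change of atoh1b-MO over control for the 5 genes with enough counts, with 95% intervals from the edgeR fit, for 5 samples (circles, without control 3) and all 6 (squares). Only the intervals of dld, -0.94 to -0.15 and -1.52 to -0.22, lay wholly on one side of 0, and neurog1 had the widest intervals.

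Between genes, levels can be compared only per length, as CPM per kilobase of the deposited gene length. On this scale her6 was highest, with a mean of 104 over the 6 samples and a range of 89.5 to 122. notch1a followed at 41.8 (35.1 to 47.5), and the ranges of these 2 genes did not overlap. dld had a mean of 19.3 (11.8 to 35.1) and dla of 17.2 (9.46 to 32.0) CPM per kilobase. neurog1 followed at 9.94 (2.66 to 28.0), so that dld, dla and neurog1 could not be ordered beyond their spread over samples, whereas atoh1a was the lowest at 0.195 (0 to 0.747). Within a sample, the ratio of dla to dld per kilobase stayed between 0.693 in control 1 and 1.08 in atoh1b-MO 2. Across samples the highest level was 3.38 times the lowest for dla and 2.97 times the lowest for dld.

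The spread over samples set the 6 genes apart from each other. The SD of the log2 level over the 6 samples was 1.23 for neurog1, 0.66 for dla and 0.58 for dld, against a median of 0.21 over the 12044 genes of sufficient count. Only 3.07% of these genes had a larger spread than neurog1, 11.1% a larger one than dla and 13.3% a larger one than dld. For notch1a the SD was 0.16 and for her6 0.19, and 65.0% and 57.9% of genes varied more than they did. Pearson's r of the log2 levels over the 6 samples, given as a description, was 0.94 between dla and dld, 0.80 between dla and neurog1 and 0.65 between dld and neurog1. It was -0.70 between neurog1 and notch1a and -0.88 between dla and her6. All of these points share the same libraries, and control 3 is the extreme point for neurog1, dla and dld.

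For each of the 6 genes, the 3 genes with the most similar profile were picked by Pearson's r over the 6 samples among 12039 candidates, which with so few samples gives high values for many genes. For neurog1 they were si:dkey-238c7.16 (r = 0.996), NAV2 (0.995), a relative of a regulator of axon growth, and PARD6G (0.994), a cell polarity gene. The levels of NAV2 were 13.2, 23.3 and 54.3 CPM in controls 1, 2 and 3 and 39.1, 21.4 and 17.5 CPM in atoh1b-MO 2, 4 and 5. As for neurog1, control 3 was highest and atoh1b-MO 2 second. For dla they were AUTS2 (r = 0.999), CD2AP (0.994) and KIRREL1 (0.993), and for dld sb:cb81 (0.998), DDA1 (0.997) and GAL3ST4 (0.994). Of these, sb:cb81 spanned the widest range, with 103, 120 and 197 CPM in controls 1, 2 and 3 against 98.6, 64.1 and 63.0 CPM in atoh1b-MO 2, 4 and 5. The profile of notch1a was most like those of OSCP1 (r = 0.999), notch2 (0.988), which encodes another Notch receptor, and SLC37A1 (0.988). For her6 the genes were KIFBP (r = 0.989), TRMT1 (0.987) and selenop2 (0.986), and for atoh1a, whose few counts make the profile uncertain, they were cmpk (0.995), SLC29A2 (0.995) and actb1 (0.992), a beta-actin gene.

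The higher levels of atoh1a, neurog1, dla and dld in control 3, and in atoh1b-MO 2 among the injected samples, came together with a different composition of marker transcripts. Of the 9 markers of hindbrain and other neural plate, 9 were above both other controls in control 3, beside 40.9% of all genes tested with 6 samples. Their summed level was 1425 CPM in control 3 and 628 CPM in atoh1b-MO 2, against 152 and 190 CPM in controls 1 and 2 and 122 and 167 CPM in atoh1b-MO 4 and 5. The forebrain markers, all 6 of them above both other controls in control 3, summed to 267 CPM in control 3 and 119 CPM in atoh1b-MO 2, and to between 29.6 and 47.2 CPM in the other 4 samples. Of the 13 OEPD and otic markers, 8 were below both other controls in control 3 and 1 above both. The share of all genes below both was not computed. The OEPD and otic markers summed to 518 CPM in control 3, to 1475 and 1797 CPM in controls 1 and 2, and to 974, 1311 and 1191 CPM in atoh1b-MO 2, 4 and 5. Nephric markers, a list that shares pax8 and PAX2 with the former, summed to 168 CPM in control 3. Elsewhere the nephric sum lay between 1613 and 2489 CPM. Blood and vessel markers summed to 111 CPM in control 3, against 3456 CPM in control 1 and 2711 CPM in control 2. Their sums were 1489, 2197 and 2502 CPM for atoh1b-MO 2, 4 and 5. Epidermal markers summed to 4739 CPM in control 3, 3145 CPM in control 2 and between 892 and 2199 CPM in the others. Neural crest markers summed to between 190 and 275 CPM in all samples, and the defining crest marker foxd3 had 0 counts. Paraxial mesoderm and muscle markers summed to 355, 246 and 328 CPM in controls 1, 2 and 3. In atoh1b-MO 2, 4 and 5 these mesoderm markers summed to 227, 242 and 207 CPM, below every control, as did the level of dld. The part of these differences in the levels of the proneural and Delta genes was not tested, and in sorted bulk samples fewer cells of a type and less RNA per cell cannot be told apart. Without control 3, the sums of OEPD and otic, blood and vessel, and mesoderm markers were lower in every atoh1b-MO sample than in either remaining control. For the other marker lists the ranges of both groups overlapped. Whether these lower sums bear on the 5-sample fold change of dld was not tested. No single marker gene was called by edgeR in that comparison.

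**Figure D3:**
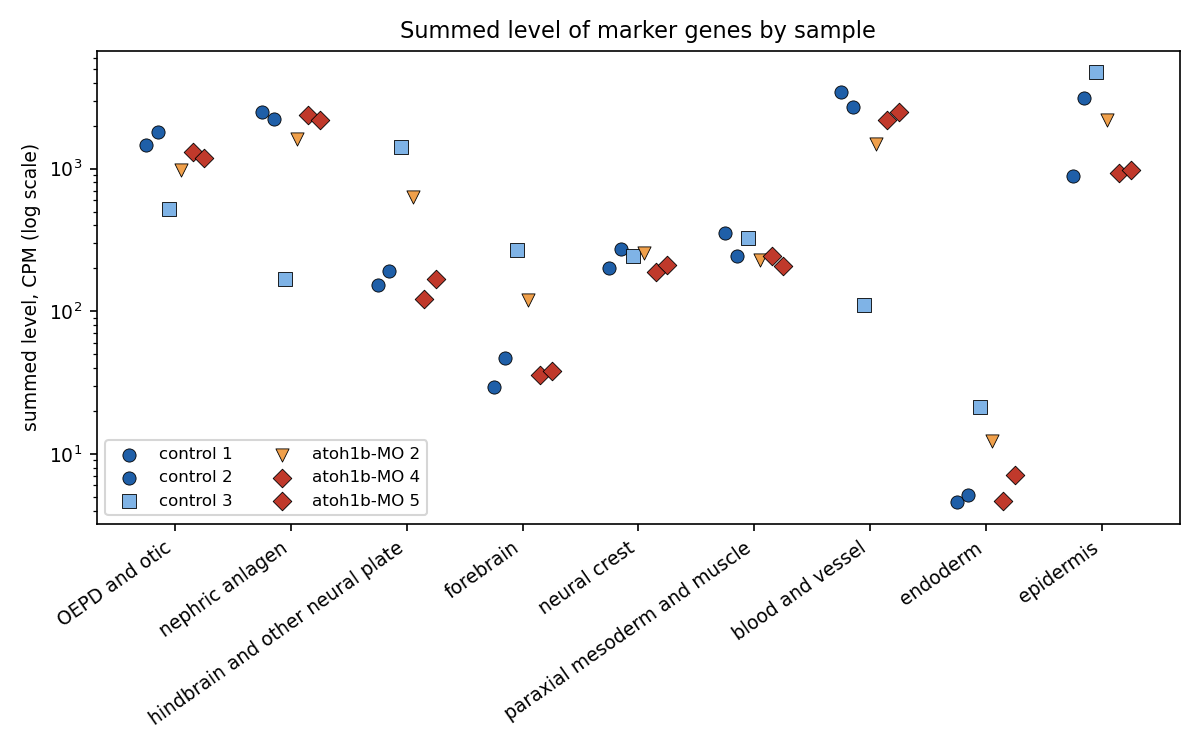
Points give the summed level of each marker list in each sample, in CPM on a logarithmic axis, with samples side by side in the order of the legend. Control 3 had the highest sum for hindbrain and other neural plate markers (1425 CPM) and the lowest for nephric markers (168 CPM), with atoh1b-MO 2 the next sample in both.

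Among all 9 ligand genes of the Delta and Jagged families, none was called by edgeR in either comparison, 1, which was dld, had an unadjusted p below 0.05, and 7 had a log2 fold change below 0 in each. DESeq2 and other settings of edgeR called dld as given above. Their median log2 fold change was -0.10 with 5 samples and -0.19 with 6, against 0.01 and -0.02 over all genes tested. The most abundant were dlc, a Delta gene known from somite segmentation, and jag2b, a Jagged gene. dlc was measured at 152, 144 and 69.0 CPM in controls 1, 2 and 3 and at 87.4, 163 and 165 CPM in atoh1b-MO 2, 4 and 5. In contrast to dla and dld, control 3 was the lowest sample, with atoh1b-MO 2 next to it. jag2b stayed between 139 and 170 CPM in all 6 samples. A further pair of ligand genes, chosen after their values were seen, marked the extremes. dlb, also a Delta gene, was 2.81-fold higher in control 3 than in the mean of controls 1 and 2, as 69.1 CPM against 16.3 and 32.8 CPM. jag1b, a Jagged gene of the ear and somites, was at 21.4 CPM in control 3 against 93.9 and 98.2 CPM in controls 1 and 2. Ligand genes thus took opposite directions in control 3, whereas dla, dld and dlb shared one.

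None of the 4 receptor genes was called by edgeR or DESeq2 either, and 0 had an unadjusted p below 0.05 in edgeR, with median log2 fold changes of -0.05 and -0.01 with 5 and 6 samples. The gene table names a second gene NOTCH1 (ENSDARG00000052094), which did not follow notch1a. Its levels were 30.5, 53.5 and 132 CPM in controls 1, 2 and 3 and 78.5, 34.9 and 37.9 CPM in atoh1b-MO 2, 4 and 5. It was highest in control 3 and next in atoh1b-MO 2, the order seen for neurog1 and dlb. The ratio of notch1a to it, per kilobase, was 2.66 in control 3 and 4.88 in atoh1b-MO 2, but between 8.62 and 13.6 in the other 4 samples. NOTCH3, the receptor gene with the highest mean level per kilobase, lay between 323 and 424 CPM in all samples.

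**Figure D4:**
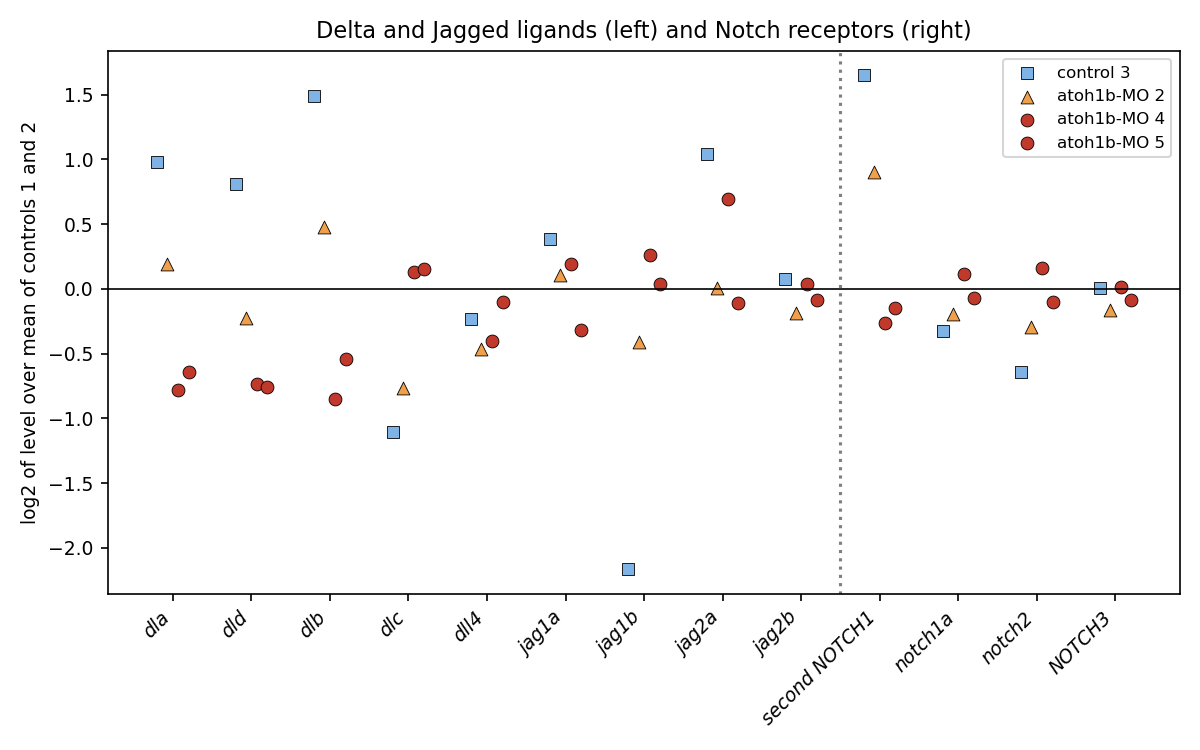
Points give the level of each ligand gene (left of the dotted line) and receptor gene (right) in control 3 and the 3 atoh1b-MO samples as log2 of the ratio to the mean of controls 1 and 2, which is the line at 0. Control 3 lay above 0 for dla, dld, dlb and the second NOTCH1 and below it for dlc and jag1b, and atoh1b-MO 2 lay on the same side as control 3 for each of these genes except dld.

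In the wider pathway, 124 genes were looked at, of which 108 were tested with 5 samples and 107 with 6. With 5 samples 2 of the 108, or 1.85%, were called by edgeR, both lower in atoh1b-MO, beside 0.598% of all genes tested, and 21 had an unadjusted p below 0.05, beside 11.2% of all genes. Of these 21, 7 were early hair cell genes, a list of which 11 were tested. The study picked most of that list from separate Dlx3b/4b knockdown samples and by an atoh1b-like staining pattern, and then tested those genes in the samples used here. The list was drawn up here with those results known, so the share of the 108 is not independent evidence. With 6 samples none of 107 was called, 12 had an unadjusted p below 0.05, beside 5.82% of all genes, and DESeq2 called 4. The first of the 2 genes was ID1 (ENSDARG00000040764), which encodes an Id protein, an inhibitor that binds the bHLH partners of proneural factors. Its level reached 681, 646 and 891 CPM in controls 1, 2 and 3 but 462, 393 and 456 CPM in atoh1b-MO 2, 4 and 5. No atoh1b-MO sample reached any control, and the log2 fold change was -0.60 ± 0.09 (SE, adjusted p = 0.0462) with 5 samples and -0.76 (adjusted p = 0.690) with 6, by edgeR. In DESeq2 with 6 samples ID1 was called lower (adjusted p = 0.0194). The other was CDR2L, which is on a list of early hair cell genes put together with results of the study known, so that its call is not independent evidence. In atoh1b mutants, the study's in situ hybridization showed cdr2l transcripts in the OEPD to be strongly lowered or missing. The levels of CDR2L here were 22.2, 36.9 and 14.9 CPM in controls 1, 2 and 3 and 8.82, 8.78 and 11.98 CPM in atoh1b-MO 2, 4 and 5. The log2 fold change was -1.58 ± 0.25 (SE, adjusted p = 0.0545, edgeR) with 5 samples. With 6 samples it was -1.32 in edgeR (adjusted p = 0.731), and DESeq2 called CDR2L lower (adjusted p = 0.0607). The calls of ID1 and CDR2L were both lost with 5 samples when control 1, atoh1b-MO 4 or atoh1b-MO 5 was left out, where 0 genes of the lists were called, and also without control 2, where HES6 was the only gene of the lists called (log2 fold change -1.04, adjusted p = 0.0701, edgeR).

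Of 7 proneural genes tested with 5 samples, neurog1 among them, none was called by DESeq2 or by edgeR without a further term. With the term for the samples numbered 2, edgeR called neurog1 (adjusted p = 0.0584). In the edgeR fit without that term, 1 gene had an unadjusted p below 0.05, 2 had a log2 fold change below 0 and the median was 0.69. With 6 samples all 6 tested were below 0, with a median of -0.71, no call by edgeR or DESeq2 and 0 unadjusted p below 0.05, so the median of the list turned its sign with control 3 as neurog1 did. NEUROD1, a neuronal differentiation factor that Neurog1 switches on, was measured at 7.67, 15.0 and 17.8 CPM in controls 1, 2 and 3 and at 8.70, 6.38 and 12.5 CPM in atoh1b-MO 2, 4 and 5, and the groups overlapped. atoh1c, a further atoh1 paralog, had 0 CPM in controls 1 and 2 and 0.507, 0.366 and 0 CPM in atoh1b-MO 2, 4 and 5. It was the proneural gene with an unadjusted p below 0.05 with 5 samples (0.0477, edgeR). It passed the count filter only through the atoh1b-MO samples, so this p gives no support for a change. With 6 samples atoh1c was not tested, so the medians of the list rest on different genes. atoh8, named after its values were seen, lay between 2.62 and 5.04 CPM. Most of the neuronal differentiation genes, which act after neurog1, were like it highest among the controls in control 3. Of the 18 tested with 6 samples, 17 were above both other controls there, beside 40.9% of all genes tested. In control 3, 14 of the 18 were at least 2-fold above the mean of controls 1 and 2, against 13.1% of all genes tested. ELAVL3, an early marker of postmitotic neurons, was at 135 CPM there against 7.92 and 15.9 CPM in controls 1 and 2. Its levels in atoh1b-MO 2, 4 and 5 were 67.7, 11.3 and 24.5 CPM, and none of the 18 genes tested was called by edgeR, with 3 unadjusted p below 0.05 for 5 samples and 1 for 6. ELAVL3 was called higher in atoh1b-MO with 5 samples and the term for the samples numbered 2 (log2 fold change 1.598, adjusted p = 0.0324), and CXCR4 (ENSDARG00000057633), a chemokine receptor gene, lower with 6 samples in DESeq2 on filtered genes (-0.54, adjusted p = 0.0550). MYT1 (ENSDARG00000074030), a zinc-finger gene of differentiating neurons, had levels of 22.1, 40.7 and 114 CPM in the controls and 68.1, 24.8 and 36.6 CPM in atoh1b-MO, again highest in control 3 and next in atoh1b-MO 2. EBF3, a transcription factor gene of differentiating neurons, had 0.288, 0.989 and 7.37 CPM in the controls and 3.12, 0.0813 and 1.83 CPM in atoh1b-MO. SOX11 (ENSDARG00000077811), a gene of immature neurons, varied little, with 65.4, 65.6 and 81.9 CPM in the controls and 68.0, 68.2 and 55.1 CPM in atoh1b-MO. The other SOX11 gene (ENSDARG00000095743), named after its values were seen, had 43.8, 43.0 and 82.2 CPM in controls 1, 2 and 3. Its levels in atoh1b-MO 2, 4 and 5 were 44.3, 39.6 and 35.6 CPM. Another CXCR4 gene (ENSDARG00000041959), named after its values were seen, was lower in control 3, at 15.14 CPM against 52.9 and 56.1 CPM.

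The her, hes and hey genes were listed by family name, and the family includes targets of the pathway but was not restricted to them. They gave no call by edgeR among 23 tested, with 3 unadjusted p below 0.05 for 5 samples and 4 for 6. Other fits called some of them, all lower in atoh1b-MO. With 5 samples DESeq2 called HES6 (adjusted p = 0.0131) and her4.1 (0.0874), edgeR called HES6 (0.0109) and HEY1 (0.0840) with no filter, HES6 (0.0604) and HEY2 (0.0725) with the term for the samples numbered 2, and her8a (0.0955) without atoh1b-MO 2. With 6 samples DESeq2 called her4.1 (0.0448). With 5 samples 17 of them had a log2 fold change below 0, with a median of -0.33, and with 6 samples 22 had, with a median of -0.74, whereas 49.1% and 52.4% of all genes tested were below 0. In control 3, 11 of the 23 genes tested with 6 samples were at least 2-fold above the mean of controls 1 and 2, against 13.1% of all genes tested. her6 was not among them, at 0.900 times that mean, and HES6 (ENSDARG00000019335) was at 0.563 times its own. HES6, the next most abundant, whose mammalian counterpart promotes neuronal differentiation, had 194, 119 and 88.1 CPM in controls 1, 2 and 3 and 104, 84.8 and 93.3 CPM in atoh1b-MO 2, 4 and 5. her4.1, one of a cluster of near-identical genes whose reads cannot be fully told apart, had the most negative log2 fold change of the named genes of this list, -1.44 (adjusted p = 0.260, edgeR) with 5 samples. Its levels were 2.95, 5.32 and 5.37 CPM in controls 1, 2 and 3 and 1.72, 1.87 and 0.996 CPM in atoh1b-MO 2, 4 and 5, without overlap. HELT, a Hey-like repressor, had 0.504, 0.134 and 4.15 CPM in the controls and 1.13, 0.732 and 0.929 CPM in atoh1b-MO.

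Of the genes that process or transmit the Notch signal, none of 28 tested was called by edgeR, 4 had an unadjusted p below 0.05 with 5 samples and 3 with 6, 15 were below 0 in each comparison and the medians were -0.04 with 5 as with 6 samples. MIB1, the ubiquitin ligase that activates Delta ligands, stayed between 181 and 215 CPM, and SPEN, a corepressor of Notch targets, between 230 and 264 CPM. DTX4, a Deltex gene that modulates Notch, had 22.8, 29.2 and 31.6 CPM in controls 1, 2 and 3 and 18.4, 15.24 and 14.0 CPM in atoh1b-MO 2, 4 and 5. Its groups did not overlap, with a log2 fold change of -0.71 (adjusted p = 0.204, edgeR) with 5 samples. DTX4 was called with 5 samples with no filter (adjusted p = 0.0580), in DESeq2 (0.0228), with the term for the samples numbered 2 (0.0492) and without atoh1b-MO 2 (0.0918), and with 6 in DESeq2 (0.0478). DESeq2 with 5 samples also called LFNG (-0.32, adjusted p = 0.0376), a Fringe enzyme that modifies Notch, and NRARP (ENSDARG00000091419, -0.47, adjusted p = 0.0226), a feedback inhibitor of the pathway, both lower in atoh1b-MO. With 5 samples edgeR called this NRARP gene with no filter (0.0320), with the term for the samples numbered 2 (0.0530) and without atoh1b-MO 2 (0.0256). With all 6 samples DESeq2 on filtered genes called LFNG (adjusted p = 0.00124) and this NRARP gene (0.00184), whereas edgeR called neither (0.731 for each). Both genes were lower in every atoh1b-MO sample than in every control, as were 5.82% of all genes tested. The other NRARP gene (ENSDARG00000018958) had a log2 fold change of -0.25 (adjusted p = 0.903, edgeR, 5 samples). One of the 2 genes named ADAM17 (ENSDARG00000093093), a protease of the family that cuts Notch, was lowest in control 3, at 3.72 CPM against 13.2 and 11.8 CPM, and had 8.27, 7.97 and 9.13 CPM in atoh1b-MO 2, 4 and 5. These lay below controls 1 and 2 but above control 3 (log2 fold change -0.56, unadjusted p = 0.0148, adjusted p = 0.308, edgeR, 5 samples). The other (ENSDARG00000043213) lay between 61.7 and 114 CPM. Among the bHLH partners, tcf3b, which dimerises with proneural factors, lay between 209 and 283 CPM, and ID4 between 2.28 and 4.21 CPM.

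Of the 11 early hair cell genes tested with 6 samples, 8 were below both other controls in control 3 and 2 above both. For comparison, 40.9% of all genes tested were above both. The share of all genes below both other controls was not computed, so the 8 genes cannot be set against it. gfi1aa, a zinc-finger gene of hair cells and of early blood, had 378, 294 and 7.12 CPM in controls 1, 2 and 3 and 187, 259 and 360 CPM in atoh1b-MO 2, 4 and 5. foxj1b, a regulator of motile cilia, was at 115, 138 and 14.3 CPM in the controls and at 73.5, 105 and 93.9 CPM in atoh1b-MO. With 5 samples 8 of 11 tested were below 0, with a median of -0.47, and with 6 samples 7 of 11, with a median of -0.11. An unadjusted p below 0.05 (edgeR) was found for 7 of the 11 with 5 samples and for 2 with 6. The study picked most of this list from separate Dlx3b/4b knockdown samples and by an atoh1b-like staining pattern. It then tested those genes in the samples used here, with 1 control dismissed, and reported foxj1b, MNS1, ulk1a, CDR2L and HAS3 as lower. Its in situ hybridization in atoh1b mutants also showed foxj1b, MNS1, ulk1a, CDR2L and HAS3 transcripts strongly lowered or missing in the OEPD. Transcripts of cxcl14 and gfi1ab were not detected there either, although the study's sequencing gave only a trend for them. The list was drawn up here with these results known, so the counts above are not independent evidence. One of the 2 genes named MYO7A (ENSDARG00000044632), a hair cell myosin, was at 0.684, 1.02 and 2.97 CPM in the controls and at 3.12, 1.71 and 3.22 CPM in atoh1b-MO. Its log2 fold change with 5 samples was 1.65 (adjusted p = 0.245, edgeR), and DESeq2 called it higher (adjusted p = 0.0614). The other (ENSDARG00000099871) was at 2.59, 2.27 and 0.358 CPM in the controls and at 2.19, 1.91 and 5.875 CPM in atoh1b-MO. Of the remaining genes of this list, DESeq2 with 5 samples called HAS3 (adjusted p = 0.0124), ulk1a (0.0278) and MNS1 (0.0686) lower in atoh1b-MO, and edgeR with no filter called foxj1b lower (0.0806).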

How the data were processed

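RNAseq was performed on sorted pax8:DsRed-positive cells, and the file holds unnormalized counts per Ensembl gene, which the authors obtained with featureCounts from reads with a unique alignment. The submitters' processing notes name GRCz10 and featureCounts 1.5.3, whereas the study's methods name GSNAP, GRCz11 and another featureCounts version. The last gene of chromosome 4 in the table ends at 76624990, as the shorter GRCz10 chromosome requires, so coordinates are given for GRCz10. The labels describe strand-specific poly(A) libraries and the study's methods another preparation, and the use of strand in counting is not stated. Unique alignment lowers counts of near-identical paralogs. Gene names were taken from a table that matched 26433 of 32266 identifiers and often gives human symbols in capitals. The 92 spike-in sequences had no counts.

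Samples were grouped by title. No library pair agreed within sampling noise (chi-square per degree of freedom 11.7 to 122.6). CPM used TMM factors from the 6 samples. Tests were run in R 4.3.3 with edgeR 4.0.16 (filterByExpr, TMM, quasi-likelihood), checked on simulated data, with alternatives in DESeq2 1.42.0 and limma 3.58.1. The block was a term for the samples numbered 2. Named from each gene list were the genes called, the 2 with the highest mean CPM and the 2 with the largest absolute log2 fold change with 5 samples. Similar profiles used log2 CPM with a prior count of 2 and genes with a mean count above 100. The 6 genes and the lists were chosen with earlier results of these data known. The depth of 24120228 to 37169850 counts per sample put 3 counts at 0.0802 to 0.122 CPM. No sequence is printed.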

Additional observations from a re-analysis of the deposited data

How the results depend on the processing

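The fold changes of dla and dld kept their direction under every alternative tried in both comparisons, as did neurog1 with 5 samples and her6 with 6. For atoh1a only 3 of the 14 settings with 5 samples and 6 of the 15 with 6 gave a value. All of these were below 0, but the other settings could not be compared for it. The log2 fold change of dld, -0.55 with 5 samples, was called with no filter (-0.55), in DESeq2 (-0.55) and with the term for the samples numbered 2 (-0.50), ranged from -0.74 to -0.45 when 1 sample was left out, and with 6 samples was called in DESeq2 on filtered genes (-0.88). That of neurog1 was called with 5 samples under the replicate block (1.06), and with 6 samples it turned to 0.28 in voom and ranged from -1.30 to 0.89 when 1 sample was left out. With values near 0, notch1a with 5 samples turned to 0.00548 with library size alone and ranged from -0.13 to 0.0294 without 1 sample, and with 6 samples it turned to -0.0380 in voom and ranged from -0.0416 to 0.15. her6 with 5 samples ranged from -0.0519 to 0.20 without 1 sample. The cause of these turns was not tested. Leaving out control 1 or 2 in the 5-sample comparison leaves 1 control, which is then assumed to vary like the other group. No paired analysis was possible because the groups share only the number 2.

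The count of genes called with 5 samples, 110, was 488 with no filter, 690 in DESeq2, 776 in DESeq2 on filtered genes, 713 with the replicate block, 71 at an adjusted p below 0.05, and from 13 without control 1 to 260 without atoh1b-MO 2 when 1 sample was left out. With 6 samples, 0 became 112 in DESeq2, 449 in DESeq2 on filtered genes and 21 in voom, and 0 to 110 without 1 sample, where 110 is the value without control 3. In the pathway lists, the 2 genes called with 5 samples became 10 with no filter, 12 in DESeq2, 11 in DESeq2 on filtered genes, 10 with the block and 0 to 6 without 1 sample. With 6 samples, 0 became 4 in DESeq2, 8 in DESeq2 on filtered genes and 0 to 2 without 1 sample. Of the 6 genes, atoh1a was limited most by its low counts.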
